A study of Mus musculus with 2 samples.

Results

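Ephrins, semaphorins and their receptors were taken as all gene symbols of the deposited tables that begin with Epha, Ephb, Efna or Efnb and a number, with Sema3 to Sema7, or with Plxna to Plxnd, together with Nrp1 and Nrp2. The rule found 53 of 25791 listed genes: 14 Eph and ephrin A genes, 8 Eph and ephrin B genes, 20 semaphorins, and 11 plexins and neuropilins. RNA came from thymic epithelial cells of fetal thymus at 15 days post coitum, which were sorted as EpCAM-positive and negative for CD45 and PDGFRa. The library titled B6J came from C57BL/6 mice and the library titled humanCD3eTg from C57BL/6J x CBA/J mice. The submitters compared epithelium with and without thymocytes, but the treatment label "presence" is on humanCD3eTg, whose title names a transgene generally known to leave mice without T cells. The libraries are therefore called by their titles, and every direction below is humanCD3eTg relative to B6J. The strain backgrounds differ as well, and strain, transgene and thymocytes cannot be told apart. The labels state neither the promoter and copy number of the transgene nor how many fetuses were pooled.

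Eph receptors are receptor tyrosine kinases whose ligands, the ephrins, are themselves held at the cell surface, by a lipid anchor in the A class and by a transmembrane stretch in the B class. Signals run both ways where cells touch and commonly make cells separate, spread or sort into compartments. Semaphorins are guidance cues that act mainly through plexins. Those of class 3 are secreted and mostly need a neuropilin as co-receptor, whereas classes 4 to 7 are attached to the membrane. In the thymus, EphB receptors and ephrin B ligands are known for roles in epithelial organisation and the colonisation of the organ by progenitors, and class 3 semaphorins with plexin D1 for guiding developing thymocytes.

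Each group had 1 library, so the values have no replicate error, nothing could be tested, and how far mice of 1 group differ from each other is unknown. Values are FPKM, fragments scaled by transcript length and by library total, so that levels may be compared between genes. A log2 ratio below is that of FPKM + 1, which understates differences of low genes, and a 2-fold difference means a log2 ratio of 1 or more in either direction. A gene was used where its mean over both libraries was at least 1 FPKM, which held for 40 of the 53. Depth was estimated from the steps between low values as about 19900000 fragments in B6J and 15800000 in humanCD3eTg. Intervals given with a fold are 95% exact intervals from the estimated fragments and cover counting error only.

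Thymic epithelial markers were abundant in both libraries, with a summed level of 8546 FPKM in B6J and 8599 FPKM in humanCD3eTg over 14 genes, all of them used. These sums rest largely on the keratin genes Krt8 and Krt18, and single genes differed: 10 of the 14 were lower and 4 higher, with Foxn1, the master regulator of this lineage, 2-fold lower at 91.1 and 43.7 FPKM and the keratin gene Krt5 2-fold higher at 280.2 and 955.5 FPKM. All 12 used of 17 thymocyte markers were lower, their summed level being 181.2 and 11.9 FPKM, and 5 of the 17, Cd3g and Cd3d among them, were listed at 0 in humanCD3eTg. All 12 used of 13 pan-haematopoietic markers found (211.3 and 78.6 FPKM) and all 9 used of 14 endothelial markers (65.5 and 18.8 FPKM) were lower too. Arhgdib alone held 55.6% of the pan-haematopoietic sum in B6J and 82.6% in humanCD3eTg. The median log2 ratio of the 12 used pan-haematopoietic markers was -1.87. Of 11 used neural crest, glia and pigment markers, from 14 listed, 10 were higher (38.3 and 167.8 FPKM), with Mlana listed at 0 in B6J and Tyrp1 in both libraries. Mesenchymal markers summed to 298.9 and 298.8 FPKM, although 10 of 13 used were lower (median log2 ratio -0.38), Thy1 and Tcf21 by 2-fold. The collagen genes Col1a1 and Col1a2 were higher. Thy1 had the lowest log2 ratio of this list at -2.65, where the median of the used thymocyte markers was -3.00. Whether its RNA came from mesenchyme or from thymocytes was not tested. Macrophage markers summed to 27.4 and 20.3 FPKM, and neuronal markers to 352.4 and 434.0 FPKM. In sorted bulk RNA, fewer cells of a type and less RNA per cell cannot be told apart.

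**Figure D1:**
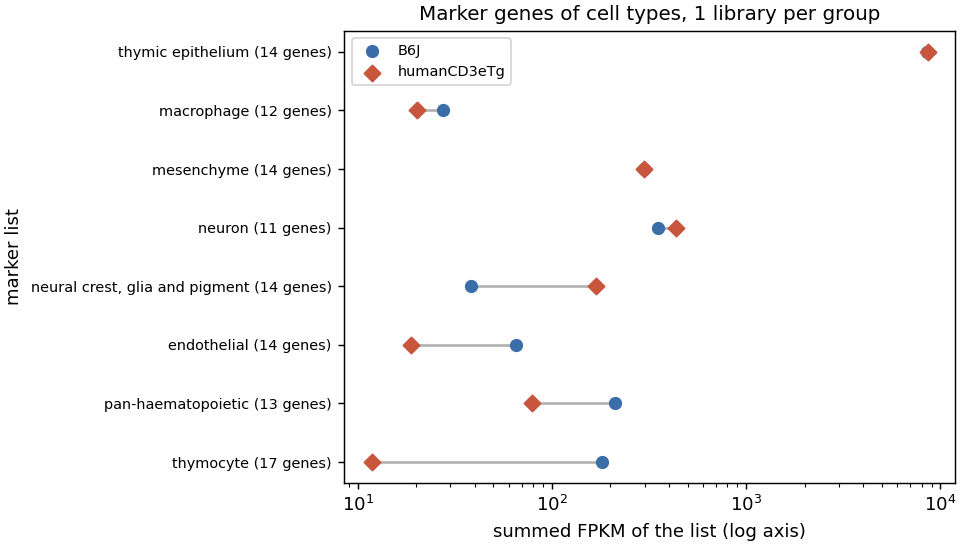
Summed FPKM (log axis) of 8 marker lists in the B6J library (circles) and the humanCD3eTg library (diamonds). The thymocyte sum lies at 181.2 and 11.9 FPKM, and the thymic epithelial sum, of which Krt8 and Krt18 hold the most, at 8546 and 8599 FPKM.

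Only 3 of the 40 used members differed 2-fold on FPKM + 1. Sema4c and Sema4d were lower and Plxnc1 was higher. Of the 40 used members 38 reached 1 FPKM in both libraries. Plxnc1 and Sema3d did so only in humanCD3eTg, where they were higher, and were used through that library alone. The 2 lower members are 5.0% of those used, where 4.47% of all 13493 genes used were 2-fold lower. The 1 higher member is 2.5%, where 2.1% of all genes used were 2-fold higher. With a limit of 1.5-fold 8 members were lower and 2 higher, beside 1471 and 803 of all 13493 genes used. Smaller differences leaned to one side: 28 of 40 members (70%) were lower by any amount, against 55.4% of all genes used, and the median log2 ratio was -0.25 for the members and -0.05 for all genes. After quantile normalization 23 of 40 members (57.5%) were lower, against 47.2% of all genes, and none was 2-fold lower, with 1 still 2-fold higher. Under that scaling 503 of all 13497 genes used were 2-fold lower and 371 higher. The 13 members not used had means of at most 0.943 FPKM, and 6 of them were higher, 6 lower and 1 listed at 0 in both libraries. In all, 36 of the 40 members lay between the 5th and the 95th percentile of all genes used, at log2 ratios of -0.93 and 0.65.

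**Figure D2:**
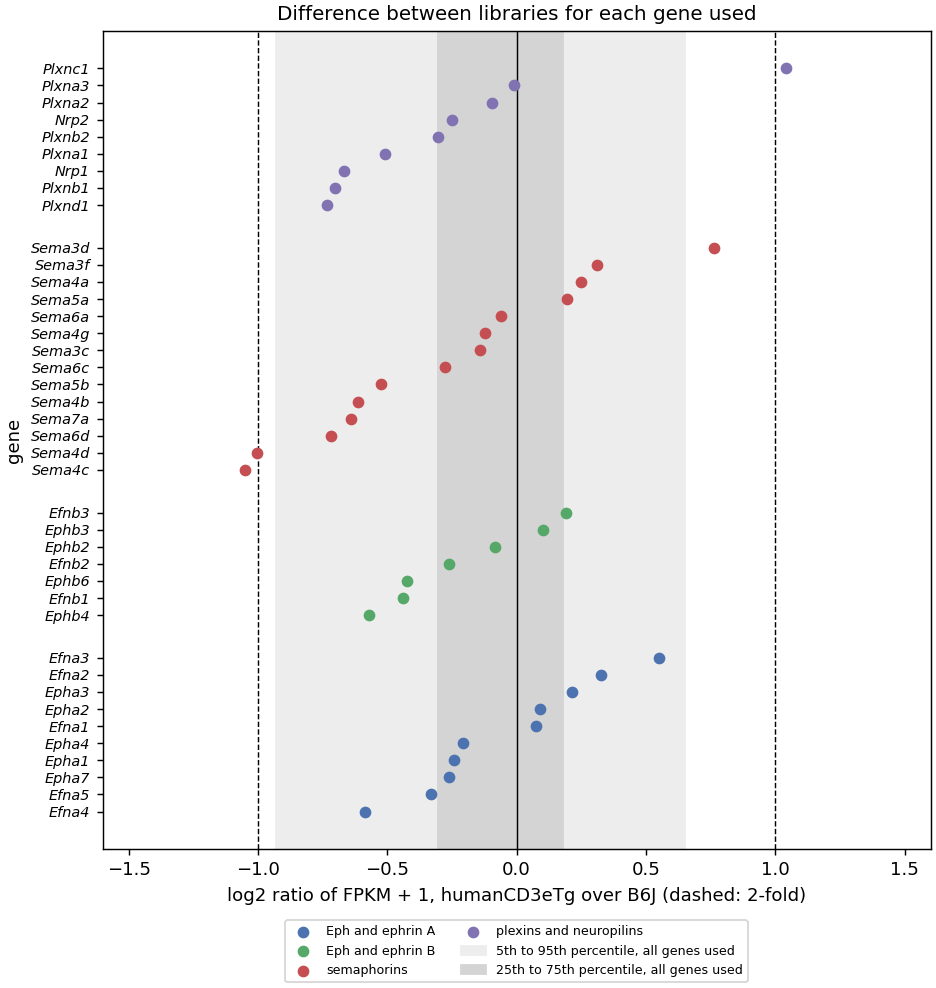
Log2 ratio of FPKM + 1 (humanCD3eTg over B6J) of the 40 used members by family, over bands that hold the central part of all 13493 genes used; dashed lines mark a 2-fold difference. Sema4c and Sema4d lie beyond the lower line, Plxnc1 beyond the upper line, and Sema3d, at 0.76, is the other member outside the wide band.

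The A class of Eph receptors and ephrins was dominated by 1 receptor and 1 ligand. Epha2, a receptor typical of epithelia, stood at 33.0 FPKM in B6J and 35.2 FPKM in humanCD3eTg, which placed it above 80.3% and 81.7% of the genes used, and it was the most abundant of all 53 members by mean level. Efna1, which encodes a preferred ligand of EphA2, stood at 28.1 and 29.6 FPKM. Both were slightly higher in humanCD3eTg, by 1.07 times for Epha2 (interval 1.01 to 1.13) and 1.06 times for Efna1 (0.948 to 1.18). Epha2 alone made up 53.4% and 58.6% of the summed level of the 9 EphA receptors, and Efna1 59.7% and 60.8% of that of the 5 ephrin A ligands.

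The remaining A-class receptors were less abundant. Epha4, which binds ephrins of both classes, stood at 12.5 FPKM in B6J and 10.6 FPKM in humanCD3eTg. Epha1, an epithelial receptor, stood at 10.5 and 8.75 FPKM. Its exons overlap those of the abundant gene Zyx (61.7 and 57.9 FPKM) on the opposite strand, and since use of strand is not given, its level is uncertain. Epha3 stood at 3.31 and 3.99 FPKM and Epha7 at 1.597 and 1.17 FPKM. With Epha2 included, log2 ratios of the 5 used EphA receptors ran from -0.26 to 0.21. Epha5 and Epha8, receptors best known from the nervous system, were below 1 FPKM in both libraries, Epha6 was listed at 0 in humanCD3eTg, and Epha10 was listed at 0 in both.

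Among the ephrin A ligands, genes that lie next to each other differed in opposite directions. Efna1, Efna3 and Efna4 are neighbours in the RefSeq gene order, with Efna3 in the middle. Efna3 stood at 4.89 FPKM in B6J and 7.62 FPKM in humanCD3eTg, 1.56 times higher (interval 1.30 to 1.88). Efna4 stood at 6.21 and 3.81 FPKM, 1.63 times lower (interval 1.24 to 2.13). In B6J Efna4 was therefore the more abundant of the pair, and in humanCD3eTg Efna3 was, while Efna1 beside them was at nearly the same level. Both lay within 2-fold on FPKM + 1, at 0.55 and -0.58, and both overlap an annotated gene on the opposite strand. For Efna3 that gene is Gm15998, at 0.0332 and 0.176 FPKM, and for Efna4 it is a gene without deposited values. Efna5 stood at 4.94 and 3.72 FPKM and Efna2 at 2.95 and 3.96 FPKM. These differences cancelled in the sum: the ephrin A ligands totalled 47.1 FPKM in B6J and 48.8 in humanCD3eTg, and the EphA receptors 61.9 and 60.1 FPKM. Of the 10 used A-class members 5 were lower and 5 higher, none of them 2-fold, with a median of -0.07.

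In the B class 5 of 7 used members were lower, where 55.4% of all genes used were, and none was 2-fold different. Quantile normalization left 4 of 7 lower, with Ephb2 turned, beside 47.2% of all genes used under that scaling. Efnb2, a ligand of EphB4 known from arterial vessels and from epithelia, was the most abundant at 29.9 FPKM in B6J and 24.8 FPKM in humanCD3eTg, 1.21 times lower (interval 1.14 to 1.28). Ephb4, its receptor, stood at 24.7 and 16.4 FPKM, 1.51 times lower (interval 1.40 to 1.63), and had the lowest log2 ratio of the class at -0.57. Ephrin B2 and EphB4 are also endothelial genes, and endothelial markers were lower in the same library, by 3.49 times in their sum. Cdh5, a defining endothelial gene, stood at 6.69 and 1.67 FPKM. The part of endothelial RNA in the differences of Efnb2 and Ephb4 was not tested.

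Other B-class members followed at lower levels. Ephb6, a member whose kinase domain is inactive and which is also known from T cells, stood at 11.6 and 8.39 FPKM. Thymocyte markers moved with it, and their part was not tested. Efnb1, a ligand known to act on developing T cells, stood at 7.51 and 5.27 FPKM. Ephb2 and Ephb3, which serve the organisation of the thymic epithelium, were among the low ones, with Ephb2 at 1.52 and 1.38 FPKM and Ephb3 at 2.63 and 2.90 FPKM. Efnb3, the third ligand of the class, stood at 2.17 and 2.62 FPKM. For these 3 genes the counting intervals of the ratio include 1, so no difference was detectable at this depth. Ephb1 stood at 0.265 and 0.457 FPKM. In sum the EphB receptors were 1.38 times lower, at 40.7 and 29.5 FPKM, and the ephrin B ligands 1.21 times lower, at 39.6 and 32.7 FPKM.

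**Figure D3:**
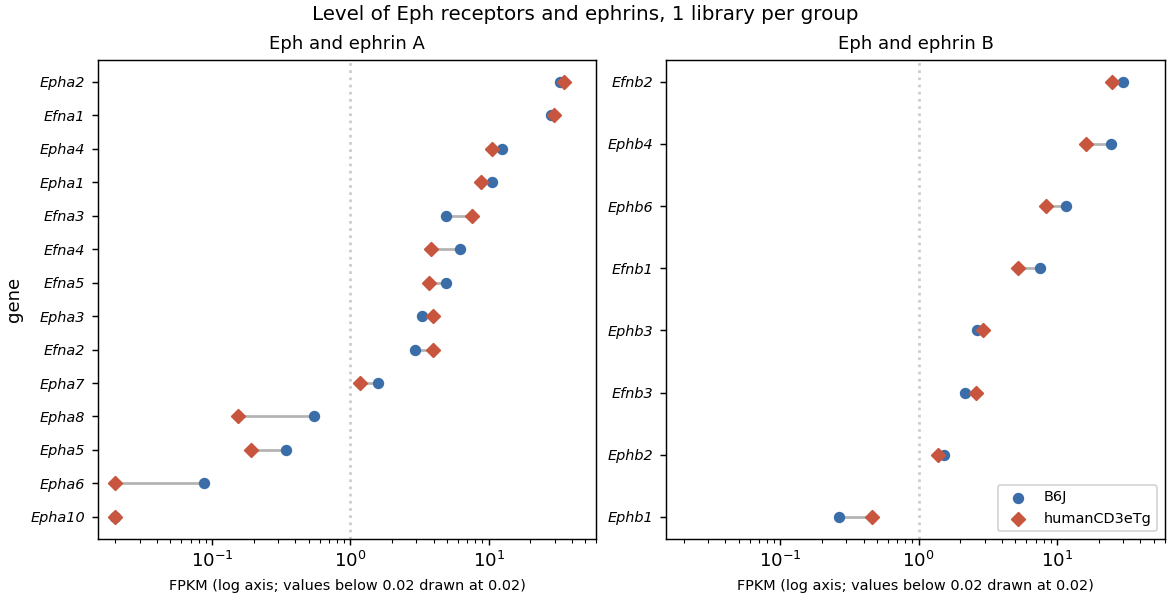
FPKM (log axis) of the 14 A-class and 8 B-class genes in the B6J library (circles) and the humanCD3eTg library (diamonds), ordered by mean level; the dotted line marks 1 FPKM. Epha2 and Efna1 lead the A class with nearly equal values in both libraries, and Efnb2 and Ephb4 lead the B class with lower values in humanCD3eTg.

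In summed level the semaphorins divided by class, with the membrane-bound classes lower and the secreted class 3 higher in humanCD3eTg. The class 3 sum rests mostly on Sema3f, which held 77.2% of it in B6J and 73.0% in humanCD3eTg. Semaphorins of classes 4 to 7 summed to 73.6 FPKM in B6J and 45.8 FPKM in humanCD3eTg, and those of class 3 to 20.2 and 26.8 FPKM. The most abundant semaphorin therefore differed between the libraries: it was Sema4c in B6J, with 26.1% of the summed level of the family, and Sema3f in humanCD3eTg, with 26.9%. Over the 14 used semaphorins 10 were lower (71.4%, beside 55.4% of all genes used) and 4 higher. With quantile normalization 8 were lower (57.1%, beside 47.2% of all genes used). On the values as given 2 were 2-fold lower (14.3%, beside 4.47% of all genes used), and the median log2 ratio was -0.21. This division by class was seen in these values and was not tested.

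Sema4c, which encodes a membrane-bound ligand of plexin B2, stood at 24.5 FPKM in B6J and 11.3 FPKM in humanCD3eTg. It was 2.17 times lower (interval 1.98 to 2.37; log2 ratio -1.05), and it ranked above 74.3% of the genes used in B6J and above 55.1% in humanCD3eTg. With quantile normalization its log2 ratio was -0.98, just short of 2-fold. Exons of Sema4c overlap an annotated gene on the opposite strand over up to 334 bases.

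Sema4d, known as CD100 on T cells and a ligand of plexin B1, stood at 3.28 and 1.13 FPKM. It was 2.89 times lower (interval 2.23 to 3.75), on an estimated 278 and 77 fragments. Its log2 ratio on FPKM + 1 was -1.004, at the 2-fold limit, and -0.85 with quantile normalization or -0.96 with median centring. Thymocyte markers were lower with it, 10 of the 12 used by at least 2-fold, including Cd3e at 10.6 and 1.08 FPKM and Lck at 20.5 and 1.08 FPKM, and their part in the level of Sema4d was not tested.

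The other class 4 members were not all lower. Sema4b stood at 9.20 FPKM in B6J and 5.67 FPKM in humanCD3eTg, 1.62 times lower (interval 1.42 to 1.85). Sema4g stood at 3.80 and 3.42 FPKM. Sema4a, a class 4 semaphorin known from dendritic and T cells, was higher at 2.74 and 3.45 FPKM. Sema4f was low, at 0.0910 and 0.245 FPKM. Together the 6 class 4 genes were 1.73 times lower, at 43.6 and 25.2 FPKM.

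In class 6, which signals mainly through plexins of the A type, Sema6d stood at 13.0 FPKM in B6J and 7.50 FPKM in humanCD3eTg. It was 1.73 times lower (interval 1.58 to 1.89) at a log2 ratio of -0.72. Sema6c stood at 3.37 and 2.60 FPKM and Sema6a at 4.90 and 4.67 FPKM, the latter with an interval that includes 1, and Sema6b at 0.524 and 0.376 FPKM. Sema7a, a lipid-anchored semaphorin that binds plexin C1 and integrins, was 1.82 times lower (interval 1.45 to 2.34), at 3.82 and 2.09 FPKM. The class 5 genes went apart, with Sema5b at 3.35 and 2.03 FPKM and Sema5a at 1.03 and 1.33 FPKM.

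Of the 7 secreted class 3 semaphorins, 5 were higher in humanCD3eTg, most of them from low levels. Without the filter, 8391 of all 25791 genes were higher. Only 3 of the 7 were used, and 2 of these were higher, beside 6019 of all 13493 genes used. Sema3f, which acts through neuropilin 2, was the abundant one at 15.6 FPKM in B6J and 19.6 FPKM in humanCD3eTg, 1.26 times higher (interval 1.14 to 1.38). Sema3d stood at 0.838 and 2.12 FPKM, 2.53 times higher (interval 1.97 to 3.22), with a log2 ratio of 0.76 that became 1.24 with a pseudocount of 0.1. It was used only through its level in humanCD3eTg. A further 3 genes had means below 1 FPKM and were not used in the counts of used members. These were Sema3a, a repulsive cue for axons and migrating cells (0.610 and 1.28 FPKM), Sema3e, the ligand of plexin D1 that acts without a neuropilin (0.330 and 0.823 FPKM), and Sema3b (0.310 and 0.997 FPKM).

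Sema3c, by contrast, stood at 2.11 and 1.82 FPKM, and Sema3g at 0.402 and 0.199 FPKM. Estimated fragments for Sema3b were only 18 and 45. Neural crest, glia and pigment markers were higher in the same library, 8 of the 11 used by at least 2-fold, with Sox10 at 0.776 and 11.6 FPKM and Foxd3 at 0.0230 and 3.0 FPKM. Their part in the levels of the class 3 genes was not tested.

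Of the 9 used receptors of semaphorins 8 were lower, where 55.4% of all genes used were, and the median log2 ratio was -0.30 beside -0.05 for all genes. Quantile normalization left 6 of 9 lower, beside 47.2% of all genes used under that scaling. Plexins of the B type, which bind class 4 semaphorins, were the most abundant. Plxnb2 stood at 31.3 FPKM in B6J and 25.2 FPKM in humanCD3eTg, 1.24 times lower (interval 1.18 to 1.31). Plxnb1 stood at 28.3 and 17.0 FPKM, 1.67 times lower (interval 1.58 to 1.75). Its exons overlap those of Gm7628 (1.49 and 0.387 FPKM) on the opposite strand over up to 257 bases. In their sums class 4 semaphorins were 1.73 times lower and B plexins, at 59.6 and 42.2 FPKM, 1.41 times lower. In the same library 28 of the 40 used members were lower. Sema4c held 56.1% of the class 4 sum in B6J, and Sema4a was higher. A link between these ligands and receptors was not tested. Plxnb3 was low, at 0.0601 and 0.0325 FPKM.

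Among A plexins, which bind class 6 semaphorins directly and class 3 semaphorins with neuropilins, Plxna1 stood at 17.4 and 11.9 FPKM, 1.46 times lower (interval 1.37 to 1.55). Plxna2 stood at 3.36 and 3.08 FPKM and Plxna3 at 2.02 and 1.99 FPKM, both with intervals that include 1, and quantile normalization turned their small differences to the other direction. Plxna4 stood at 0.205 and 0.600 FPKM, higher in humanCD3eTg but not used for its low mean.

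Plxnd1, the receptor of semaphorin 3E, stood at 6.96 FPKM in B6J and 3.78 FPKM in humanCD3eTg, 1.84 times lower (interval 1.64 to 2.08). Nrp1, a co-receptor of class 3 semaphorins that also binds VEGF, stood at 5.23 and 2.92 FPKM, 1.79 times lower (interval 1.48 to 2.17). Nrp2 stood at 1.88 and 1.42 FPKM. The receptor Plxnd1 was lower where its ligand Sema3e was higher, but Sema3e was below 1 FPKM in both libraries and was not used. A link between the 2 genes was not tested. Plxnd1 and Nrp1 are well known from endothelium. Endothelial markers were lower with them, 8 of the 9 used by at least 2-fold, including Pecam1 at 8.01 and 1.10 FPKM, and their part was not tested.

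Plxnc1, the receptor of semaphorin 7A, was the only used plexin or neuropilin gene that was higher. It stood at 0.956 FPKM in B6J and 3.02 FPKM in humanCD3eTg, 3.16 times higher (interval 2.58 to 3.89; log2 ratio 1.04), on an estimated 135 and 340 fragments. Its value in B6J was below 1 FPKM, so it was used only through its level in humanCD3eTg. Exons of Plxnc1 overlap an annotated gene on the same strand. The ligand gene Sema7a was lower. Plexin C1 is known from melanocytes and leukocytes. The pigment cell genes Dct (0.631 and 55.5 FPKM) and Mlana (listed at 0 in B6J, 11.3 FPKM in humanCD3eTg) were higher in the same library and Ptprc (4.18 and 0.358 FPKM) was lower, and the part of these cells was not tested.

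**Figure D4:**
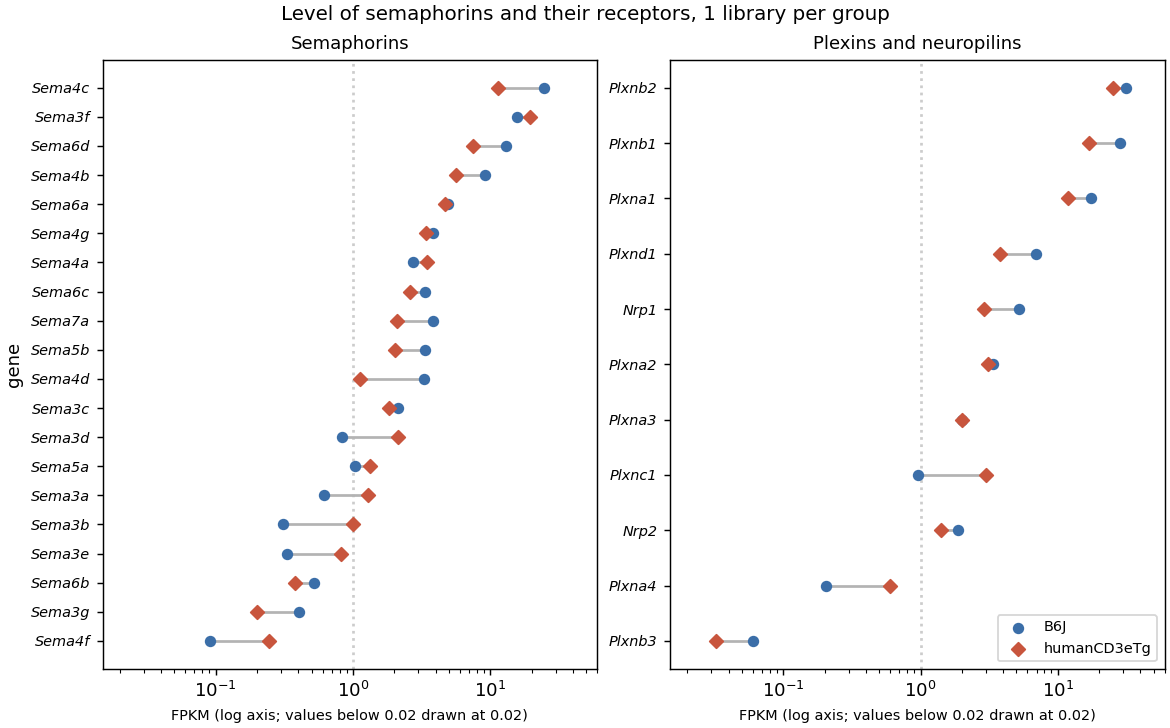
FPKM (log axis) of the 20 semaphorins and of the 11 plexins and neuropilins in the B6J library (circles) and the humanCD3eTg library (diamonds), ordered by mean level; the dotted line marks 1 FPKM. Sema4c, Sema6d, Plxnb1 and Plxnd1 are lower in humanCD3eTg, while Sema3d and Plxnc1 are higher.

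**Figure D5:**
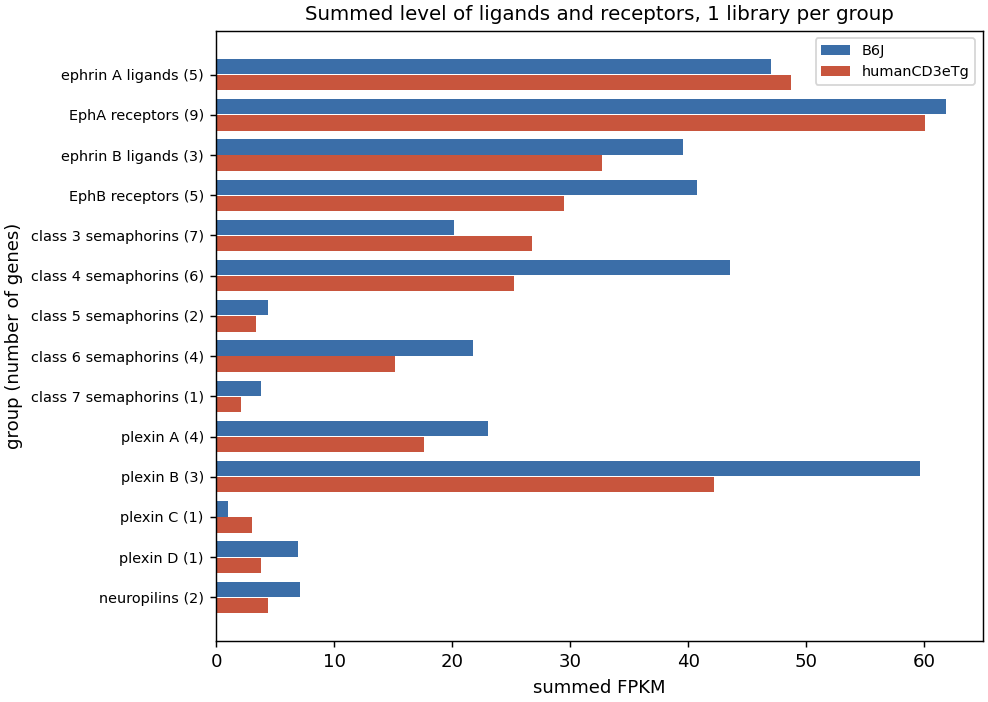
Summed FPKM of each class of ligand and receptor (bars from 0) in the B6J and humanCD3eTg libraries, with the number of genes in brackets. The A-class ephrins and Eph receptors have nearly equal bars, the class 4 semaphorins stand at 43.6 and 25.2 FPKM, and the class 3 semaphorins stand at 20.2 and 26.8 FPKM.

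Signalling partners of these ligands and receptors were taken from fixed lists. Of 28 listed partners of Eph receptors and ephrins 27 were used and none differed 2-fold, with a median log2 ratio of -0.08. The most abundant were Sdcbp, which encodes the PDZ protein syntenin that can bind ephrin B tails (74.7 and 101.7 FPKM), the GTPase-activating protein gene Sipa1l1 (20.7 and 21.2 FPKM), the kinase gene Abl1 (24.3 and 17.3 FPKM) and the phosphatase gene Acp1 (18.7 and 22.4 FPKM). Of 42 listed partners of semaphorin signalling 36 were used, with a median of 0.00. In that list Cd72, a B cell receptor of semaphorin 4D (3.62 and 0.212 FPKM), and Rnd1, a GTPase that binds plexins (9.65 and 4.29 FPKM), were 2-fold lower. This is 5.56% of the list beside 4.47% of all genes used, and no partner was 2-fold higher. The actin-severing Cfl1 (641.0 and 731.5 FPKM) and the small GTPase genes Rac1 (113.0 and 127.1 FPKM), Rhoa (114.6 and 107.7 FPKM) and Rap1b (91.5 and 115.7 FPKM) were the most abundant.

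Other guidance systems were expressed at lower levels. Of 20 genes of the Slit, netrin and RGM systems 9 were used and none differed 2-fold. Of these 9, 8 were lower, where 55.4% of all genes used were. Their median was -0.23, beside -0.25 for the 40 ephrin, semaphorin and receptor genes used and -0.05 for all genes used. They included Neo1, a netrin and RGM receptor gene (13.3 and 11.2 FPKM), Unc5b, which encodes a netrin receptor (9.80 and 6.47 FPKM), Robo1, a Slit receptor gene (7.64 and 6.53 FPKM), and Rgma (7.50 and 5.20 FPKM).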

How the data were processed

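Per the labels' protocols, sorted cells were lysed in TRIzol and their total RNA was made into Illumina TruSeq libraries, 1 for each group. The authors deposited 1 FPKM value for each of 25791 gene symbols in each library. Per the submitters' processing notes, which give no roles, the build was mm9 and the tools were Cufflinks 2.1.1, TopHat2 2.0.8 and Bowtie2 2.1.0. The annotation, filters and use of strand are not stated there. On GENCODE M21 exons of a later build, 14 of the 53 members overlap another gene, 11 on the opposite strand, so their levels are uncertain. Besides Epha1, Efna3, Efna4 and Sema4c, they include the used members Ephb4, Nrp1, Plxna1, Plxnb1, Plxnc1 and Sema4a. Zan, which overlaps Ephb4 over up to 33 bases, was at 0.0337 FPKM in B6J and listed at 0 in humanCD3eTg.

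Log2 ratios were computed on FPKM + 1 for the 13493 genes whose mean reached 1 FPKM (Python 3.11.15, pandas 2.3.3), and the computation was tested on simulated data. Values of at most 0.001 FPKM are said to be listed at 0. The fragments behind a value were estimated with lengths of RefSeq-paired GENCODE transcripts less 210 bases, taking the step (0.0503 and 0.0631 FPKM for 1 fragment over 1 kb) that made the most low values whole. Of 535 and 413 low genes 56.8% and 57.6% came within 0.1 of a whole fragment, which makes it a rough estimate, and count models were not used. Taken without lengths, the commonest ratio of low values was 1.26, shared by 94 of 1460 genes where the median bin held 2. Steps from 0.04 to 0.09 were tried, a range chosen with an earlier estimate known.

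Members, 11 gene lists and alternatives were chosen with earlier results of these data known. Values are given in sentences for members with a mean of at least 5 FPKM or a 2-fold difference, and for others of known role. For partner lists the 2-fold different and the 4 most abundant genes are named. Further markers beside single members and lists (such as Cdh5, Lck, Mlana, Dct, Krt5, Thy1, Col1a1) were picked after their values were seen.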

Additional observations from a re-analysis of the deposited data

How the results depend on the processing

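No paired analysis was possible because each group had 1 library, and for the same reason no library could be left out. Medians and sums count as moved beyond 0.1 on the log2 scale. Direction within the 40 used members did not depend on the pseudocount; quantile normalization turned 5 (Ephb2, Sema4g, Sema6a, Plxna2 and Plxna3, none beyond 0.12 in size) and median centring 1 (Plxna3). Of members 2-fold higher there were 2 with a pseudocount of 0.1, 0 with 5, 0 with a mean of at least 5 FPKM, 2 at 1.5-fold and 0 at 4-fold; of members 2-fold lower there were 0 with a pseudocount of 5, 1 with a mean of at least 5 FPKM, 1 with median centring, 0 with quantile normalization, 8 at 1.5-fold and 0 at 4-fold. The median of members was -0.12 with a pseudocount of 5, -0.14 with no filter, -0.43 with a mean of at least 5 FPKM and -0.12 with quantile normalization.

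For semaphorins 1 was 2-fold higher with a pseudocount of 0.1; 0 were 2-fold lower with a pseudocount of 5, 1 with a mean of at least 5 FPKM and 0 with quantile normalization, and their median was -0.10, -0.67 and -0.074 under these 3 settings. For plexins and neuropilins 0 were 2-fold higher with a pseudocount of 5 or a mean of at least 5 FPKM, where their median was -0.61 with the latter; the B-class median was then -0.43. For semaphorin partners 1 was 2-fold higher with a pseudocount of 0.1 and 1 lower with quantile normalization, and for other guidance genes 1 was lower with no filter. Over all genes, 473, 106, 143, 803 and 66 were 2-fold higher with pseudocounts of 0.1 and 5, a mean of at least 5 FPKM, and limits of 1.5-fold and 4-fold, and 223, 272, 1471 and 171 were lower under the last 4 of these. With quantile normalization the thymocyte and endothelial sums in humanCD3eTg were 13.0 and 20.2 FPKM. Depth limits the members below 1 FPKM most: Sema4f rested on an estimated 7 and 15 fragments, and Plxnb3 on 7 and 3.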
